A study of Canis lupus familiaris with 33 samples.

Results

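The receptors and ligands of the EGFR family were examined in canine invasive urothelial carcinoma (iUC), a bladder cancer of dogs. The members were taken by gene symbol from a table of 25096 genes, and 5 of the 7 genes sought were present, namely the 3 receptors *EGFR* (ENSCAFG00000003465), *ERBB2* (ENSCAFG00000016351) and *ERBB3* (ENSCAFG00000000097) and the 2 ligands *AREG* (ENSCAFG00000003075) and *HBEGF* (ENSCAFG00000005749). The ligands *EREG* and *TGFA* were not analysed here. All 5 genes passed the filter on low values, which 24471 genes of the table passed.

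The samples were 29 tumors and 4 normal bladder mucosae (A to D), each sequenced as whole tissue RNA after removal of ribosomal RNA. The tumors were high grade iUC from untreated dogs, taken by cystoscopic biopsy, with 1 tumor per dog, and they are named here as in the sample titles. How deep they had invaded could not be judged in every biopsy. The normal mucosa was dissected from the bladders of dogs that were euthanized for diseases not of the bladder, and the labels call it normal urothelial cells. All samples were sequenced in 1 batch. Age, breed and sex of the single dogs are not given in the sources used here, and normal mucosa and tumor differed also in how the tissue was obtained.

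EGFR, ERBB2 and ERBB3 are receptors of the cell surface that pair with each other when a ligand binds and pass the signal to the RAS-ERK and PI3K-AKT pathways. ERBB2 has no known ligand of its own and serves as the partner of the other receptors, while ERBB3 binds neuregulins and is known as a strong link to PI3K. Amphiregulin (*AREG*) and heparin-binding EGF-like growth factor (*HBEGF*) are made as membrane proteins and bind EGFR after they are cut free by proteases such as ADAM17. In the bladder these receptors are known from the growth and repair of the urothelium, and extra copies of *ERBB2* are known from a share of urothelial carcinomas.

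Each value was the log2 of a TMM-normalized read count minus the median of that gene over the 33 samples, so that 0 is the middle sample of a gene and a difference of 1 is 2-fold. Levels can therefore be compared between samples but not between genes. The depth of each library is unknown, because no counts were given. Normal and tumor samples differed in the whole table. A normal sample had 755 to 1019 genes at the shared lowest value of the gene, and a tumor had 3699 to 8175. Of the tested genes, 2615 were called higher in tumors and 11206 lower (limma, adjusted p of 0.05 or less and at least 2-fold), and the median difference was -0.84 over all tested genes but -0.01 over the 18418 genes whose median lay above the lowest value.

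*ERBB2* and *ERBB3* were higher in tumors than in normal mucosa on the TMM scale, while *EGFR*, *AREG* and *HBEGF* did not pass the test in either direction. Thus on this scale 2 of the 5 genes were called higher and 0 lower, where 10.7% of all tested genes were called higher and 45.8% lower. The differences of *ERBB2* and *ERBB3* shrank when the samples were centred on epithelial genes, and *ERBB2* turned below 0 with 3 such genes but not with 9. With the 3 genes *EGFR*, *AREG* and *HBEGF* were called lower, as were 20178 of all tested genes, and with the 9 they were not called, as given below.

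*ERBB3* had the clearest separation. Its values in normal mucosa A to D were -2.06, -2.12, -1.96 and -2.79, while the tumors ranged from -0.95 through a median of 0.06 to 0.57. The groups did not overlap, and all 29 tumors lay above every normal sample, as was true of 7.63% of all tested genes. The mean difference was 2.24 ± 0.22 on the log2 scale (SE, n = 4 and 29), or 4.73-fold, with a limma adjusted p of 3.45e-11 and an exact permutation p of 2.44e-05 (two-sided, 40920 arrangements), the smallest that this design can give.

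*ERBB2* values in normal mucosa A to D were -1.48, -1.51, -1.23 and -1.97, and the tumors ranged from -1.24 through a median of 0.06 to 2.25. The groups met at a single tumor, Da6, whose value of -1.24 lay just under that of normal mucosa C, and the other 28 tumors were above every normal sample. The mean difference was 1.62 ± 0.28 (log2, SE), or 3.07-fold, with a limma adjusted p of 6.30e-06 and an exact permutation p of 4.89e-05.

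*EGFR* overlapped between the groups. Normal mucosa A to D had -0.44, -0.05, -0.16 and -0.66, and the tumors ranged from -0.93 in tumor 20 through a median of 0.04 to 1.34 in tumor 3. The mean difference of 0.44 ± 0.25 (log2, SE) did not pass the test (limma adjusted p = 0.119, exact permutation p = 0.0919). The interval of 2 SE on either side, from -0.07 to 0.94, ended short of a 2-fold difference.

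*AREG* had a narrow range in normal mucosa and a very wide one in tumors. Normal mucosa A to D had 0.58, 0.93, 0.11 and 0.32, and the tumors ran from -5.51 in tumor 3 through a median of -0.45 to 5.56 in tumor JE. Of the tumors 8 lay above and 17 below every normal sample, so that the mean difference of -0.81 ± 1.21 (log2, SE) was well within the spread of the tumors (limma adjusted p = 0.554, exact permutation p = 0.519). The mean difference from normal is a poor account of this gene, since its interval of 2 SE on either side ran from -3.23 to 1.61.

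*HBEGF* values in normal mucosa A to D were -0.26, -0.12, -0.07 and -1.31, and those of the tumors ran from -1.92 in tumor 10 through a median of 0.10 to 1.48 in tumor Da6. The groups overlapped, with 17 tumors above every normal sample, and the difference of 0.52 ± 0.37 (log2, SE) did not pass the test (limma adjusted p = 0.212, exact permutation p = 0.181).

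Among the other ligands of the family that were measured, betacellulin (*BTC*), which binds EGFR and ERBB4, was called lower in tumors. Its values in normal mucosa A to D were 3.77, 3.81, 3.30 and 3.00, and the tumors ranged from -3.75 in tumor Ab through a median of -0.08 to 2.78 in tumor 8_734_223, so that all 29 tumors lay below every normal sample, as did 28.5% of all tested genes. The difference was -3.64 ± 0.57 (log2, SE), a 12.4-fold lower mean, with a limma adjusted p of 1.02e-06 and an exact permutation p of 2.44e-05. Epigen (*EPGN*), a further EGFR ligand, had -1.02 ± 0.50 (limma adjusted p = 0.0671), and the neuregulins *NRG1* and *NRG2*, ligands of ERBB3 and ERBB4, had -0.43 ± 0.59 and -1.10 ± 0.71 (limma adjusted p = 0.517 and 0.165). *ERBB4*, *EGF*, *NRG3* and *NRG4* were not analysed here.

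**Figure D1:**
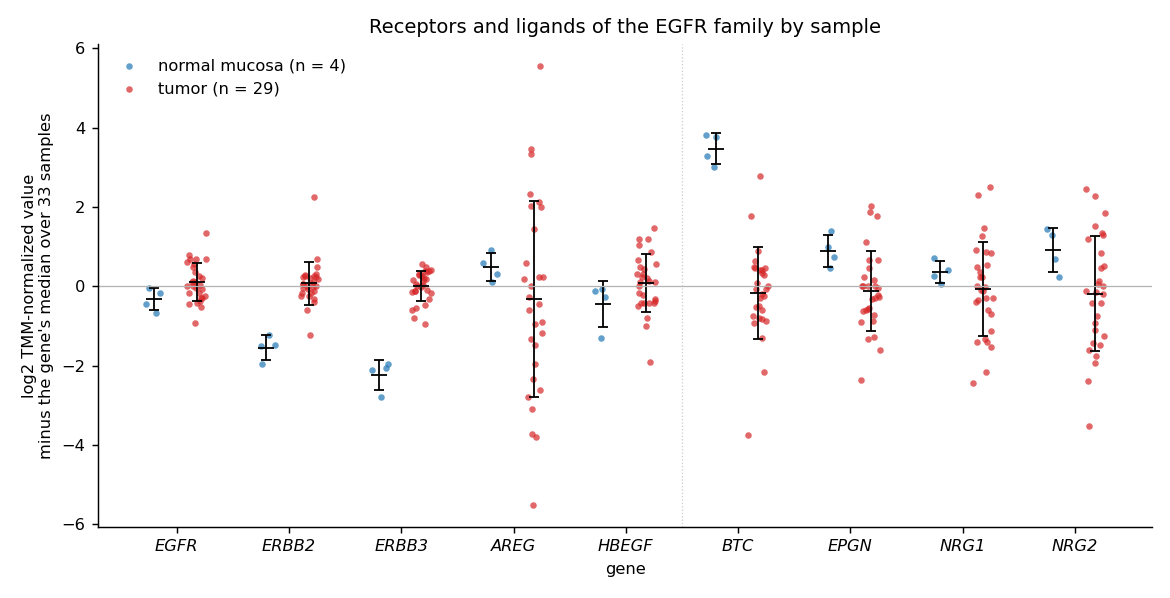
Each point is 1 sample, with the 4 normal mucosae in blue and the 29 tumors in red, and the vertical axis is the log2 TMM-normalized value minus the median of the gene over 33 samples. Black bars are the mean ± SD of the group. On this scale, which was not centred on epithelial genes, the *ERBB3* tumors lie above and the *BTC* tumors below every normal sample, and the *AREG* tumors run from -5.51 to 5.56.

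Genes of other cell types also differed between the groups. The 5 measured smooth muscle genes of 9 listed were all called lower in tumors, against 45.8% of all tested genes, and their mean per sample was 4.94 to 6.97 in normal mucosa and -1.28 to 3.89 in tumors. *ACTG2*, smooth muscle actin, had -7.05 ± 0.64 and *TPM2*, a tropomyosin, -6.28 ± 0.65 (log2, SE, limma adjusted p = 6.91e-12 and 1.64e-10). The 5 measured fibroblast genes of 7 were called lower as well, with means per sample of 2.53 to 3.13 and -2.40 to 2.30, and so was the Schwann cell gene *CDH19*, with -7.46 ± 1.02 (limma adjusted p = 7.69e-08). No smooth muscle or fibroblast gene was at its lowest value in any sample. Of 4 measured endothelial genes 0 were called by limma, with a median difference of -0.17, and of 8 leukocyte genes 1 was called higher and 1 lower, with a median of -0.03. Of the 9 measured epithelial genes of 15, 5 were called higher in tumors and 1, *KRT20*, lower, with -3.75 ± 1.09 (limma adjusted p = 0.00288), and the list had a median difference of 1.09 and a mean of 0.63. *EPCAM* had 2.18 ± 0.36 and *CDH1*, E-cadherin, 2.15 ± 0.28 (limma adjusted p = 2.31e-06 and 3.62e-08). In whole tissue, fewer cells of a type and less RNA per cell cannot be told apart.

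The samples were therefore also centred on epithelial genes, in 2 ways. The first used *EPCAM*, *CDH1* and *KRT19*, 3 measured of 6 listed, whose differences were 2.18, 2.15 and 1.09, and it took 1.81 off the tumor minus normal difference of every gene. On this scale *ERBB3* had 0.43 (limma adjusted p = 0.0689) and *ERBB2* had -0.19 (limma adjusted p = 0.533), so neither was called. *EGFR* had -1.37 (limma adjusted p = 0.000363), *HBEGF* -1.29 (limma adjusted p = 0.00359) and *AREG* -2.62 (limma adjusted p = 0.0413), all called lower, as were 20178 of all tested genes, with 66 called higher. The second, added after the data were seen, used all 9 measured epithelial genes and took 0.63 off every difference. On this scale *ERBB3* had 1.61 ± 0.25 and was called higher (log2, SE, limma adjusted p = 6.44e-07), and *ERBB2* had 0.99 ± 0.28 (limma adjusted p = 0.00240), just short of 2-fold. *EGFR* had -0.19, *HBEGF* -0.11 and *AREG* -1.44, and none of these passed the test (limma adjusted p = 0.651, 0.853 and 0.317), with 689 of all tested genes called higher and 13031 lower. Which set of epithelial genes is the better measure was not tested.

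**Figure D2:**
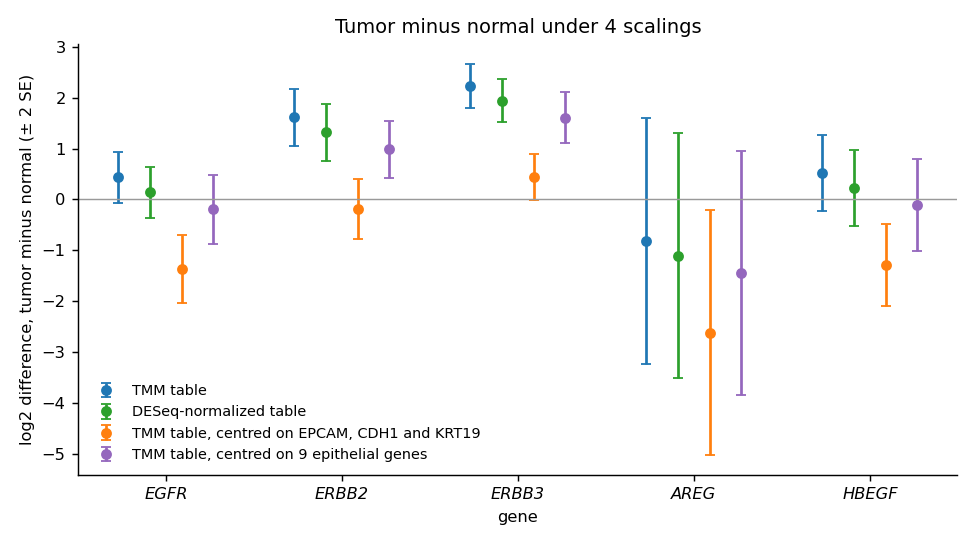
The points are tumor minus normal differences on the log2 scale, with bars of 2 SE on either side, for the TMM table, the DESeq table and the TMM table centred on 3 or on 9 epithelial genes. *ERBB2* and *ERBB3* lie above 0 in both tables, at 1.62 and 2.24 in the TMM table, and *ERBB2* moves to -0.19 and *ERBB3* to 0.43 with 3 genes, or to 0.99 and 1.61 with 9.

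Genes that free the ligands, carry the signal or restrain it were followed in lists, and the counts below are for the TMM scale, where 56.5% of all tested genes were called in either direction, and a difference below 1.81 or 0.63 turns negative after centring on the 3 or the 9 epithelial genes. Of 5 measured genes of ligand release 2 were called higher and 0 lower. These were the proteases *ADAM17*, with 1.24 ± 0.19, and *ADAM9*, with 1.73 ± 0.28 (log2, SE, limma adjusted p = 6.32e-07 and 2.20e-06). Both lay between these limits.

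Of 19 measured genes that relay the signal inside the cell 3 were called higher and 1 lower, with a median difference of 0.68. *GRB7*, an adaptor that binds the ERBB receptors and lies close to *ERBB2* in the genome, had 3.42 ± 0.35 (log2, SE, limma adjusted p = 1.67e-10), a difference larger than that of *ERBB2* itself. *NRAS* had 1.32 ± 0.17 and *PIK3CB*, a catalytic subunit of PI3K, 1.06 ± 0.20, while *PIK3R1*, a regulatory subunit, was called lower, with -1.10 ± 0.37 (limma adjusted p = 3.85e-08, 2.08e-05 and 0.00833).

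Of 11 measured genes that inhibit or turn over the receptors 2 were called higher and 0 lower. *SOCS3*, an inhibitor of cytokine signals, had 1.92 ± 0.54, and *PTPRJ*, a receptor phosphatase, had 1.78 ± 0.28 (log2, SE, limma adjusted p = 0.00203 and 8.07e-07). *ERRFI1*, which blocks the EGFR kinase, had 0.27 ± 0.42, and *LRIG1*, which promotes receptor breakdown, had -0.42 ± 0.33, and neither passed the test (limma adjusted p = 0.580 and 0.257).

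Of 16 measured ERK feedback genes and early targets 8 were called higher and 1 lower, with a median difference of 1.11. The share called in either direction, 56.3%, was close to the 56.5% of all tested genes. *DUSP4* and *DUSP6*, phosphatases that switch ERK off, had 3.96 ± 0.64 and 2.28 ± 0.36, and the transcription factors *ETV4* and *FOS* had 2.51 ± 0.49 and 2.13 ± 0.63 (log2, SE, limma adjusted p = 1.64e-06, 1.11e-06, 3.56e-05 and 0.00305). *SPRY2*, a feedback inhibitor of receptor signals, was called lower, with -1.39 ± 0.52 (limma adjusted p = 0.0167). Of the genes called higher in this list, *DUSP4*, *DUSP6*, *ETV4*, *FOS* and *PHLDA1*, with 1.90 ± 0.30 (limma adjusted p = 1.45e-06), had differences above the mean of 1.81 of *EPCAM*, *CDH1* and *KRT19*.

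Within the 29 tumors the genes varied to very different degrees. *AREG* had an SD of 2.47, which was larger than the SD of 99.2% of all tested genes, and its highest tumor was 2142-fold above its lowest. *HBEGF* had an SD of 0.73, *ERBB2* of 0.55, *EGFR* of 0.49 and *ERBB3* of 0.39, and these were larger than the SD of 56.4%, 41.7%, 35.1% and 23.0% of all tested genes. The *AREG* tumors formed no single outlying group. Their quartiles were -1.97 and 1.44, and tumors JE, Po and 2_699898 were highest, with 5.56, 3.47 and 3.34, while tumors 3, 7_733858 and 20 were lowest, with -5.51, -3.79 and -3.72.

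The tumor with most *AREG*, JE, had the lowest *ERBB3* of all tumors, -0.95, and the second lowest *ERBB2*, -0.59, while its *EPGN* of 1.86 ranked 2 of 29. The tumor with least *AREG*, tumor 3, had the highest *EGFR*, 1.34, with *ERBB2* and *ERBB3* both at 0.00. Tumor Da6 had the highest *HBEGF*, 1.48, and the lowest *ERBB2*, -1.24. Tumor 10 was lowest in both *HBEGF*, -1.92, and *EPGN*, -2.36, and ranked 26 of 29 in *AREG*.

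**Figure D3:**
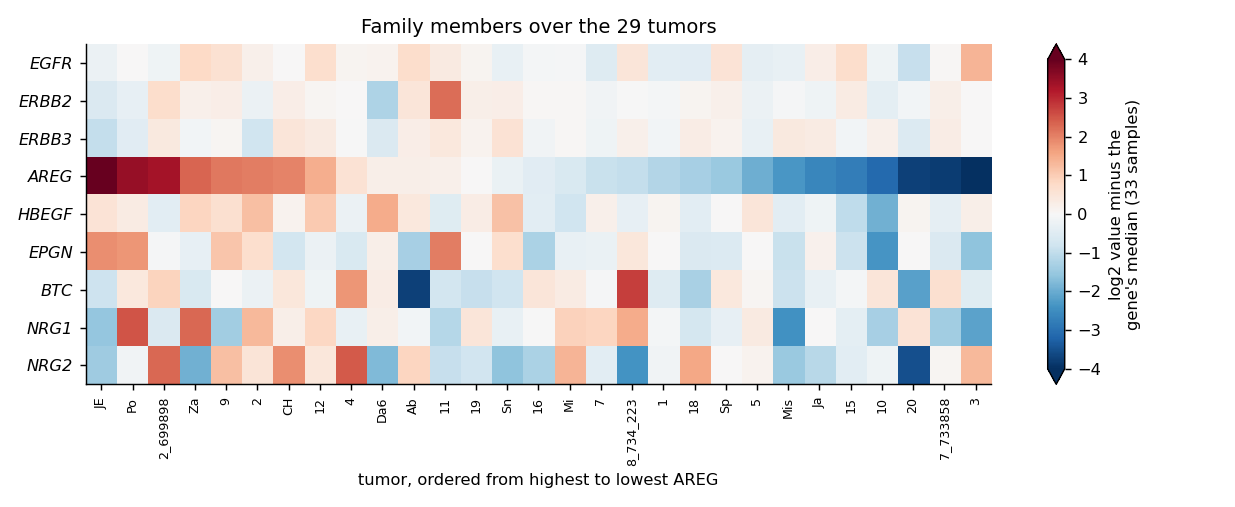
Columns are the 29 tumors from highest to lowest *AREG*, rows are the genes, and color is the log2 value minus the median of the gene over 33 samples, with values beyond 4 in either direction drawn in the end color. The *AREG* row runs from 5.56 to -5.51, the *ERBB2* row is pale apart from tumors 11 and Da6, and the ligand rows do not follow the *AREG* order as a whole.

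Tumors were called outlying for a gene when they lay more than 1.5 interquartile ranges outside the quartiles of the 29 tumors, which describes the tumors and is no test. *EGFR* and *AREG* had no such tumor. *ERBB2* was high in tumor 11 and low in tumor Da6, where 42.2% of all tested genes had at least 1 high outlier and 23.0% at least 1 low one. *ERBB3* was low in tumors 2 and JE, with -0.80 and -0.95, where 8.03% of all tested genes had at least 2 low outliers, and *HBEGF* was low in tumor 10. In the DESeq table only 1 *ERBB3* tumor, JE, stayed outside the limit, which tumor 2 had passed narrowly, with -0.80 against a limit of -0.79.

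Tumor 11 had an *ERBB2* value of 2.25, which was 2.19 above the tumor median, and 2.29% of all tested genes were at least as far above theirs in this tumor. The genes next to *ERBB2* were high in the same tumor. Of the 5 nearest genes with a symbol on each side in RefSeq order, 7 of 10 were at least 2-fold above their tumor median and were highest in tumor 11, compared with 10.8% and 4.17% of all tested genes. These were *LRRC3C* with 4.82, *ORMDL3* with 1.84, *GRB7* with 1.97, *PGAP3* with 1.97, *PNMT* with 7.08, *STARD3* with 1.80 and *PPP1R1B* with 4.80, each as the log2 difference from the tumor median. *NEUROD2* had 0.76 and *IKZF3* 0.45, and *MIEN1* did not pass the filter.

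A wider view, of 20 genes on each side, was taken after these values were seen. From *THRA*, which codes for a thyroid hormone receptor and lies 10 genes to one side, to *EPOP*, the last gene looked at on the other side, 25 of 30 genes were at least 2-fold above their tumor median in tumor 11 and 22 were highest there. The median difference was 1.82. They included *CDK12*, a kinase of transcription, with 1.78, the Mediator genes *MED1* and *MED24*, with 1.84 and 1.96, and *LASP1*, with 2.95. Beyond *THRA*, 0 of 10 genes were 2-fold above, and the differences ran from -1.42 in *CDC6* to 0.53 in *NR1D1*. *TOP2A*, on that side, had -0.86 and *RARA* -0.37. The number of gene copies was not measured in these data.

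**Figure D4:**
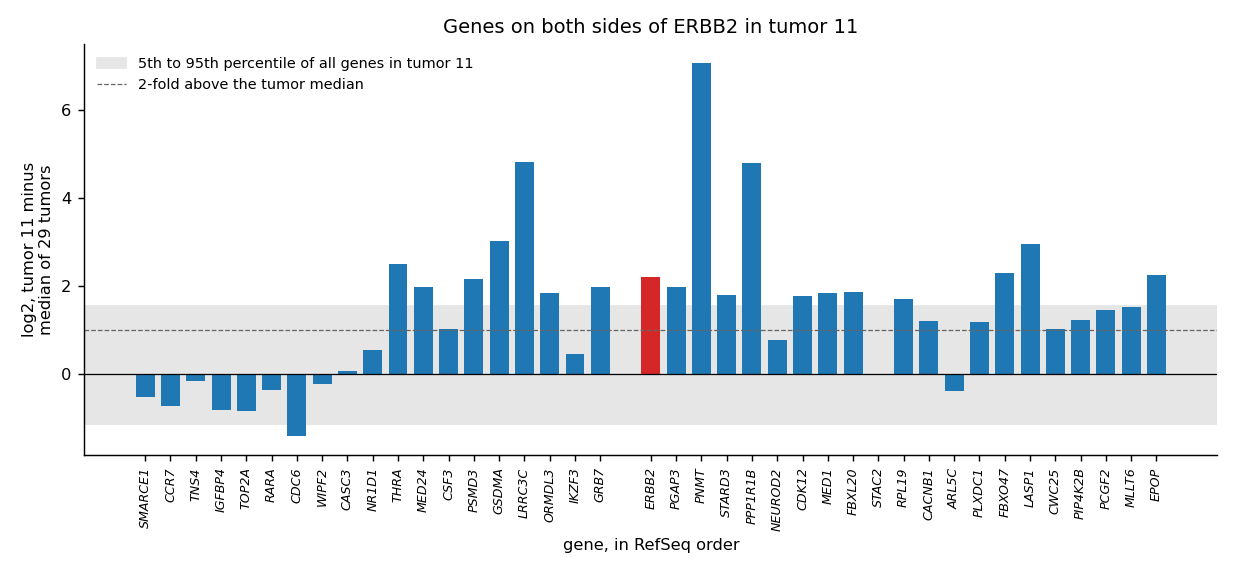
Bars are the log2 difference of tumor 11 from the median of the 29 tumors for *ERBB2* (red) and the tested genes up to 20 places away on each side in RefSeq order (blue), and the gray band holds the 5th to 95th percentile of all genes in that tumor. The bars rise between *NR1D1*, at 0.53, and *THRA*, at 2.50. Besides *ERBB2*, 25 of the 29 tested genes from *THRA* to *EPOP* reach the dashed line of 2-fold, and *MIEN1*, which was not tested, has no bar.

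The genes around the low values were viewed in the same way. Of the 10 genes nearest to *ERBB3* 0 were 2-fold above or below in tumor 2 or in tumor JE. Of 35 tested genes within 20 places 1 was 2-fold above and 0 below in tumor 2, where 10.7% and 9.33% of all genes were, and 2 were above and 2 below in JE, where 11.9% and 6.15% were.

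Around *ERBB2* in tumor Da6 values went both ways. The adjacent tested genes *GRB7* and *PGAP3* had -1.42 and -1.74 from the tumor median and were, like *ERBB2*, lowest of all tumors there. Of 39 tested genes within 20 places 7 were lowest in Da6, where 3.05% of all genes were, while 8 were at least 2-fold above the tumor median and 3 at least 2-fold below, compared with 13.3% and 9.13% of all genes.

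Around *HBEGF* in tumor 10 most genes were somewhat low. Of 40 genes within 20 places 35 lay below their tumor median, compared with 35.7% of all genes in that tumor, and 5 were lowest in tumor 10, compared with 3.64%. Their median was -0.54 on the log2 scale, and *HBEGF* itself was at -2.02, while 7 of the 40 were at least 2-fold below, compared with 8.80%. *CYSTM1*, next to *HBEGF*, had -1.10. Only 17994 of the 24471 tested genes had a tumor median above their lowest value. The others cannot lie below their median, which lowers the shares of all genes on the low side, also those given above for *ERBB3* and Da6.

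The tumors low in a receptor were also placed along the marker lists. By the mean of the 9 measured epithelial genes, tumor Da6 ranked 29 of 29, JE 28 and tumor 2 ranked 22, and by the mean of 4 measured basal or squamous genes they ranked 1, 3 and 5 from the top. Da6 was also highest in the leukocyte list, and JE in the endothelial list. By the mean of *EPCAM*, *CDH1* and *KRT19*, Da6 and JE were again lowest, at -0.59 and -0.42, and tumor 2 was above the middle, at 0.17. The study reports high epithelial cellularity for all tumors that it included. The part of these cells in the low receptor values was not tested.

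Co-variation over the 29 tumors was examined for all 10 pairs of the measured genes, of which 6 were pairs of a receptor with a ligand. A pair was called when each gene passed a limma fit on the other, with p-values adjusted over all genes tested in tumors, and 0 of 10 pairs were called. Of all genes 0.345% were called with *ERBB2*, 0.502% with *ERBB3* and 0% with *EGFR*, *AREG* or *HBEGF*. Without adjustment 2 pairs had a permutation p under 0.05, and both were pairs within a kind.

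*ERBB2* and *ERBB3* had the highest correlation, with Pearson r of 0.57 (95% interval 0.25 to 0.77, permutation p = 0.00117) and Spearman rho of 0.65 (permutation p = 0.00019). Without tumors 11 and Da6 r was 0.64. The limma adjusted p over all genes was 0.165 with *ERBB2* as the covariate and 0.0889 with *ERBB3*. Under the other scalings, the DESeq table and the exclusion of tumors outlying in either gene or in genes at the lowest value, r was 0.48 to 0.57.

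*AREG* and *HBEGF*, the EGFR ligands, had r of 0.42 (95% interval 0.07 to 0.68, permutation p = 0.0220) and rho of 0.49 (permutation p = 0.00825), and r was 0.48 without tumors 3 and JE. The limma adjusted p was 0.703 and 0.367. Each also had a positive correlation with *EPGN*, of 0.58 for *AREG* and 0.44 for *HBEGF*, which did not pass either (limma adjusted p = 0.451 and 0.350). With *BTC*, by contrast, *AREG* had 0.07 and *HBEGF* -0.24.

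No receptor-ligand pair had a permutation p under 0.05. *ERBB3* and *HBEGF* had r of -0.34 (95% interval -0.63 to 0.03, permutation p = 0.0689) and rho of -0.34 (permutation p = 0.0742), and r was -0.21 without tumors 2 and JE, -0.20 without all tumors outlying in either gene and -0.16 after centring on the 3 epithelial genes. *ERBB2* and *HBEGF* had r of -0.27 (permutation p = 0.156), which was 0.01 without tumors 11 and Da6 but -0.21 without tumors 11, Da6 and 10, the tumors outlying in either gene. *ERBB3* and *AREG* had r of -0.26 (permutation p = 0.178), which turned to 0.06 without tumors 2 and JE and so rested on them. For *EGFR*, the receptor that both ligands bind, r was -0.01 with *AREG* (95% interval -0.38 to 0.36, permutation p = 0.955) and 0.14 with *HBEGF* (-0.24 to 0.48, permutation p = 0.480). On the scale centred on the 3 epithelial genes *EGFR* had higher r, of 0.38 with *HBEGF*, 0.41 with *ERBB2* and 0.48 with *ERBB3* instead of 0.14, 0.23 and 0.18, and none was called in both directions (larger limma adjusted p = 0.139, 0.290 and 0.0971).

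**Figure D5:**
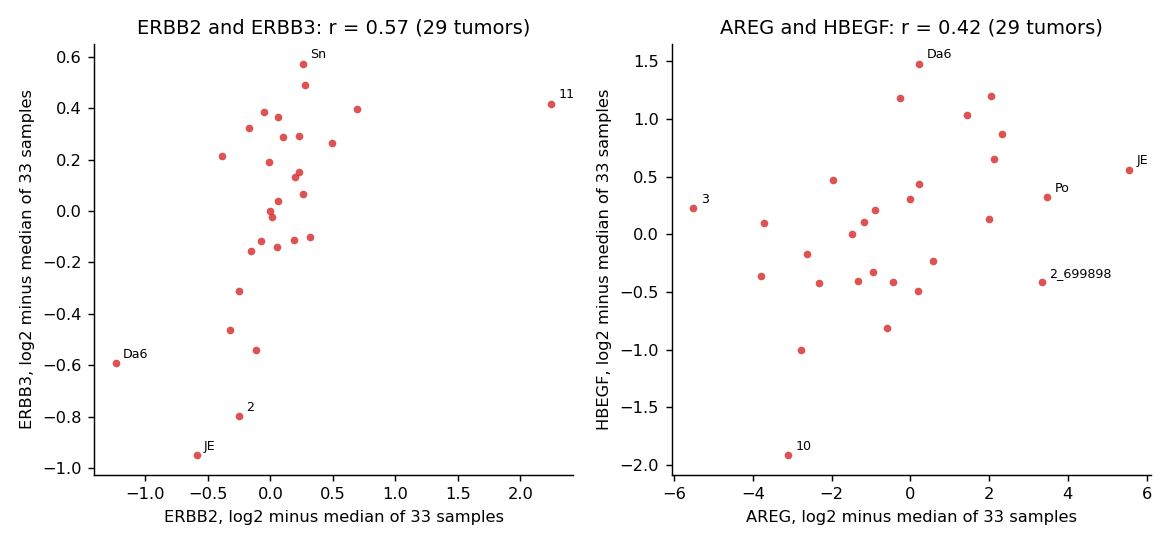
Each point is 1 of the 29 tumors, and both axes are log2 values minus the median of the gene over 33 samples. On the left *ERBB3* rises with *ERBB2* (r = 0.57), with tumor 11 alone at the far right, and on the right *HBEGF* rises with *AREG* (r = 0.42) with a wider scatter. Neither pair passed the adjustment over all genes.

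Of the genes tested against *ERBB2* over tumors, 78 were called positive (0.324%) and 5 negative (0.0208%). The genes most alike, by Pearson r among the 10958 tested genes that have a symbol and a tumor median above the lowest value, were *MED24* with 0.91, *LASP1* with 0.87 and *FBXL20* with 0.84 (limma adjusted p = 1.64e-06, 1.11e-05 and 0.000200), all within 20 genes of *ERBB2*. Of the 78 positive genes 51 had a place in the RefSeq order, and 32 of these were on the chromosome of *ERBB2*, which holds 7.66% of placed genes, with 17 within 20 genes of it. Tumor 11 carried much of this. Without it 212 genes were called, of which 11 were among the 83, and without tumor Da6 82 were called, of which 59 were shared. The correlation of *ERBB2* with *GRB7* was 0.77 with and 0.65 without tumor 11, with *MED24* 0.91 and 0.77, and with *STARD3* 0.74 and 0.32.

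Against *ERBB3*, 54 genes were called positive (0.224%) and 67 negative (0.278%). Among the same 10958 genes those most alike were *ATF7IP2* with r of 0.77, *GRTP1* with 0.77 and *MIOX*, an enzyme of inositol breakdown, with 0.71 (limma adjusted p = 0.00430, 0.00616 and 0.0160), while ENSCAFG00000038684, which has no symbol, had 0.83 (limma adjusted p = 0.000132). Of the called relations the largest in size was negative, with *ARHGAP25* at r of -0.86 (limma adjusted p = 2.44e-05). Of 34 positive genes with a place, 3 were on the chromosome of *ERBB3*, which holds 4.33% of placed genes. From the pathway and marker lists *GRB7* was called positive, with r of 0.69, and the B cell gene *CD79A* and the basal desmosome gene *DSG3* negative, with -0.62 and -0.65 (limma adjusted p = 0.0216, 0.0468 and 0.0305). These counts rested on few tumors, since 9 genes were called without tumor 2, 8 of them shared with the 121, and 46 without tumor JE, 35 of them shared.

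Against *EGFR*, *AREG* and *HBEGF* 0 genes were called by limma, and 1113, 1554 and 2506 of 24088 had an unadjusted p under 0.05. The genes most alike among the 10958 did not pass the adjustment. They were *TAF6* with r of 0.63, *ZNF689* with 0.63 and *SMARCC2* with 0.62 for *EGFR*, *TLL1* with 0.70, the desmosome gene *DSG1* with 0.65 and *KCNF1* with 0.65 for *AREG*, and *NFIL3*, a transcription factor, with 0.71, *FAM214B* with 0.70 and the protease gene *TMPRSS11F* with 0.70 for *HBEGF*. Over all 24088 genes the smallest limma adjusted p was 0.664 for *EGFR*, 0.305 for *AREG* and 0.0534 for *HBEGF*.

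The means of marker lists were also set beside each gene over the tumors, without a test of differences between genes. *ERBB2* and *ERBB3* had r of 0.61 and 0.51 with the mean of 8 luminal genes, and *ERBB3* had -0.60 with the mean of 4 measured basal or squamous genes of 8 listed (permutation p = 0.00263, 0.00517 and 0.00086, adjusted over 35 relations 0.0307, 0.0452 and 0.0301). The Spearman rho of these relations were 0.58, 0.50 and -0.55 (adjusted permutation p = 0.0425, 0.0471 and 0.0425). Without tumors Da6 and JE, the 2 farthest in the luminal mean, the luminal r were smaller, at 0.40 and 0.29. Without tumors Da6 and 7, the 2 farthest in the basal mean, the basal r of *ERBB3* was -0.58. Tumors 2 and JE, the low outliers of *ERBB3*, were kept in that r. Whether the basal relation rests on them was not tested. With the 9 epithelial genes, of which 4 are also in the luminal list, *ERBB2* and *ERBB3* had 0.54 and 0.54 (adjusted permutation p = 0.0490 and 0.0307). These fell to 0.30 and 0.34 without Da6 and JE, the 2 tumors farthest in the mean of that list. *ERBB3* also had r of -0.45 with 8 leukocyte genes (adjusted permutation p = 0.0609, rho -0.47 with adjusted permutation p = 0.0471) and of -0.46 with 4 endothelial genes (adjusted permutation p = 0.0566, rho -0.34 with adjusted permutation p = 0.183).

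*ERBB2* had r of -0.51 with the basal or squamous genes, which did not pass for r but did for rho, also -0.51 (adjusted permutation p = 0.0566 and 0.0471). Without tumors Da6 and 7, the 2 farthest in the mean of this list, r was -0.34, with tumor 11 kept in. *AREG* and *HBEGF* had r of 0.39 and 0.45 with these genes (adjusted permutation p = 0.129 and 0.0609), which did not pass, while their rho of 0.46 and 0.47 did (adjusted permutation p = 0.0478 and 0.0471). *EGFR* had r of -0.16 with the basal and 0.06 with the luminal genes (adjusted permutation p = 0.665 and 0.931). With the smooth muscle list the 5 genes had r of -0.10 to 0.01 over tumors. The number of genes at the lowest value in a tumor had r of -0.30 with *AREG* and 0.28 with *ERBB3* (permutation p = 0.116 and 0.135).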

How the data were processed

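RNA-seq of 33 samples was examined. Per the labels, the authors aligned reads to CanFam 3.1 in Strand NGS (v3.1) with COBWeb. The 2 deposited tables hold log2 values of counts that the authors normalized by TMM (used throughout) or DESeq. Each gene is centred on its median over samples, and the count settings, strand use included, are not given in the sources used here. A last, incomplete line was dropped. Genes above their shared lowest value in at least 4 samples were tested with limma 3.58.1 in R 4.3.3 (mean-variance trend, Benjamini-Hochberg over all genes), in place of the count tests of the study, since no counts were used here. Single genes were also tested by exact permutation, and correlations by 100000 permutations. The fits were tested on simulated data. Gene order came from RefSeq (UU_Cfam_GSD_1.0), with 11062 of 12022 symbols matched and no coordinates used. Named genes were the members, the 3 genes with a symbol most alike to each, up to 4 called genes per list, among those with the largest change, and neighbours in outlying tumors. *ERRFI1*, *LRIG1*, *PHLDA1*, *SPRY2*, *TOP2A*, *RARA* and the genes 6 to 20 places from *ERBB2* or *HBEGF* were added, as were *CD79A*, *DSG3*, *ARHGAP25* and ENSCAFG00000038684, and all were chosen after their values were seen. The members and lists were chosen with earlier results of these data known.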

Additional observations from a re-analysis of the deposited data

Results flagged for a closer look

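*HBEGF* in normal mucosa D, at -1.31 on the log2 scale, lay far below the other 3 normal samples, which ran from -0.26 to -0.07. Its gap to the nearest of them took more of the range of the 4 samples than Dixon's critical value allows. The normals of 9 genes were looked at, and chance marks about 1 group in 20. Normal mucosa D was also the lowest normal sample in *EGFR*, *ERBB2* and *ERBB3*, at -0.66, -1.97 and -2.79, in the 9 epithelial genes, with a mean of -1.49, and the highest in the 5 smooth muscle genes, with a mean of 6.97. Without it the *HBEGF* difference between tumor and normal was 0.23 instead of 0.52, and neither passed the test.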

How the results depend on the processing

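Centring on 3 epithelial genes changed most tumor minus normal results. *EGFR* went to -1.37, *ERBB2* to -0.19 and *HBEGF* to -1.29, all turned in sign, *ERBB3* fell to 0.43 and was no longer called, and *AREG* at -2.62 became called. The genes called in all numbered 66 higher and 20178 lower. This takes 1.81 off every gene, and centring on all 9 measured epithelial genes, added after seeing the data, takes 0.63 off, with *ERBB3* still called at 1.61, *ERBB2* under the fold limit at 0.99, *EGFR* at -0.19, *HBEGF* at -0.11 and 689 genes called higher. Which scale is right was not tested. The DESeq table shifted the median gene above the lowest value by -0.28 and called 1377 genes higher, with *EGFR* at 0.14 and *HBEGF* at 0.22, no fold limit gave 5603, and genes with a median above the lowest value gave 5543 lower. The other alternatives (no filter, no trend, a weight per group, other centring, tumors left out) left the calls of the 5 members as they were. Leaving out each normal in turn gave 1.48 to 1.72 for *ERBB2*, 2.06 to 2.33 for *ERBB3*, 0.33 to 0.53 for *EGFR*, -0.94 to -0.67 for *AREG* and 0.23 to 0.64 for *HBEGF*. Of the pairs, *EGFR* and *AREG* turned to 0.0077 with the number of genes at the lowest value as a covariate and to 0.11 with epithelial centring, and *ERBB3* and *AREG* to 0.065 without outlying tumors, none of which passed the test. Epithelial centring also raised r of *EGFR* with *HBEGF*, *ERBB2* and *ERBB3* to 0.38, 0.41 and 0.48, still uncalled. The outlying *ERBB3* tumors numbered 1 in the DESeq table. Leaving out an outlying tumor, chosen after seeing the data, moved the genes called negative with *ERBB2* between 7 and 130 and positive between 75 and 82, and with *ERBB3* between 5 and 32 and between 4 and 14. No paired analysis was possible because normals and tumors share no replicate numbers. The depth of each single library is unknown.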
